A study of Mus musculus with 6 samples.

Results

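Interferon-stimulated genes, 40 in number, are described here in mouse macrophages induced with lipopolysaccharide, with and without TPPU. The members were a list of 40 gene symbols, and each was found in the deposited expression table, which gives 18019 genes. They fall into 30 antiviral genes of the type I interferon response and 10 GTPases, of which 4 are guanylate-binding proteins (GBP) and 6 immunity-related GTPases (IRG). RNA of RAW264.7 cells, an established mouse macrophage line, was sequenced after poly(A) capture in 6 libraries, 3 untreated controls and 3 treated with TPPU. Cells of both groups had been induced with lipopolysaccharide (LPS), a bacterial product. TPPU inhibits soluble epoxide hydrolase, an enzyme that degrades epoxy fatty acids. Doses and times were not given in the sources used here. All groups here had LPS, so induction itself was not measured. The series title names M1 macrophage polarization and EET, IL-17 and NF-κB signalling as the setting of the comparison. All libraries carry the same batch label. Nothing in the labels says that replicates came from separate cultures. Each p-value therefore rests on the spread among 3 libraries a group, and this spread may be technical.

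LPS binds the receptor TLR4, which signals through the adaptor TRIF to the transcription factor IRF3 and induces interferon beta. The secreted interferon acts on its receptor, IFNAR, and leads to a complex with STAT2 and IRF9 that binds the interferon-stimulated response element (ISRE) in promoters of antiviral genes. Interferon gamma acts at another site, the gamma-activated sequence (GAS). GBP and IRG GTPases, which attack the vacuoles of intracellular microbes, are known to be induced strongly by interferon gamma, while the antiviral members respond strongly to type I interferon.

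ISRE and GAS letters were present in promoters of both classes, in a larger share of the GTPases. A few stretches, all from promoters with an ISRE match, are printed to show the letters. RefSeq promoter windows (build GRCm38.p6, 250 bases before to 50 after a start) were matched by symbol for 30 of the 40 members. Iigp1, Usp18, Dhx58, Parp14, Parp9, Mx1, Zbp1, Mx2, Rtp4 and Oas2 were not matched. The core of the ISRE was searched as GAAANNGAAA and its reverse complement TTTCNNTTTC, with overlapping matches counted. It was present in 17 of 30 members, in 9 of 21 antiviral genes and in 8 of 9 GTPases, against 3.99% of the 27025 genes in the promoter table. The GAS was searched as TTCNNNGAA, which reads alike on both strands and may share letters with an ISRE match. It was present in 5 of 21 antiviral genes and 5 of 9 GTPases, against 9.55% of all genes. Of the 7 matched members whose TPPU values all lay below control, 2 held the ISRE, Rsad2 and Isg15, and 0 the GAS. Of the 23 matched members whose groups overlapped, 15 held the ISRE and 10 the GAS. These 23 include all 9 matched GTPases, so the split by overlap also follows class. A match is a run of letters and not a measured binding site. The stretches below end before the start site, read 5′ to 3′ on the gene's strand, and show ISRE letters in capitals, and for Igtp also the GAS.
Rsad2 (chr12:26456538-26456597, minus strand): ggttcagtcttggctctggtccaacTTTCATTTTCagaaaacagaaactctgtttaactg
Isg15 (chr4:156200850-156200909, minus strand): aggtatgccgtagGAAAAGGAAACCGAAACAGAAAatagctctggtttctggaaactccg
Ifit1 (chr19:34640779-34640838, plus strand): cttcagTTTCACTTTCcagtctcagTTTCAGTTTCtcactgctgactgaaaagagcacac
Oas1a (chr5:120907526-120907564, minus strand): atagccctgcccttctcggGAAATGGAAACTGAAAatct
Gbp3 (chr3:142559980-142560025, plus strand): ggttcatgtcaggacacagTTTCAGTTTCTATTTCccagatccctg
Gbp7 (chr3:142530258-142530317, plus strand): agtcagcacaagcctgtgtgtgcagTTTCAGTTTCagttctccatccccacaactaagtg
Igtp (chr11:58199497-58199555, plus strand): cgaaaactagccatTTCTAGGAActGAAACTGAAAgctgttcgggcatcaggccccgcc

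The 2 classes differed in level. Levels are FPKM, fragments scaled to gene length and library depth, which makes comparison between genes rough. How reads shared between gene copies were counted was not given, and values in some libraries were related to GC content. Antiviral members ranged from 1.00 to 443 in their mean over 6 libraries, with a median of 31.5. GBP members ranged from 0.445 to 1.82 and IRG members from 0.0105 to 9.27, with a median of 1.32 over the 10 GTPases. In mean level 6 members, all antiviral, lay above 100 FPKM, namely Bst2, Oas1a, Oasl1, Trim25, Slfn2 and Isg15. Another 17 lay between 10 and 100, 12 between 1 and 10 and 5 below 1. The summed level of the 30 antiviral genes was 2034, 2109 and 2181 in control replicates 1, 2 and 3, and 1980, 1960 and 1959 with TPPU, so the groups did not overlap. For the 10 GTPases the sums were 23.2, 24.1 and 25.8 in control against 22.8, 22.8 and 22.9 with TPPU, again without overlap. A sum is set mostly by its most abundant members, Bst2, Oas1a and Oasl1 in the first class and Igtp in the second. Bst2 had a mean of 419 in control and 467 with TPPU, against the direction of its sum. The GTPase sums were separated by a narrow margin. Igtp itself overlapped between groups, with its highest value, 13.4, in control replicate 3.

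Estimated depth was 17820000 to 22960000 fragments per library, from the steps in which low FPKM values fall. Control replicate 3 and TPPU replicate 1 stood apart in composition. Their summed mitochondrial FPKM was 0.371% and 0.914% of the total, while the other 4 had 1.46% to 1.85%. That sum was set largely by mt-Co1, which had 784 of 1112 FPKM in control replicate 3. Like mt-Co1, the genes mt-Co2, mt-Nd1, mt-Nd4, mt-Nd4l and mt-Nd5 were lowest of the 6 libraries there. Others were not, and mt-Nd2 at 27.8 FPKM and mt-Nd6 at 80.2 were highest there. In both libraries, deviations from the gene means were positively related to GC content (Spearman's rank correlation 0.61 and 0.24). These correlations were taken across genes, which are not independent replicates. All 10 macrophage markers reached 1 FPKM, with sums of 2066 to 2463 in control against 2172 to 2292 with TPPU. Of 8 T and NK cell markers 2 were in the table, Cd3d and Cd4, and they summed to at most 0.109. Fibroblast and cartilage markers summed to at most 4.91. A sum over 10 liver genes, a list chosen after the data were seen, was 63.4 to 102 in control against 114 to 227 with TPPU, and its part in the results below was not tested. The descriptions of the TPPU libraries name columns of another table sh-LIS1. Pafah1b1, the gene of LIS1, measured 6.52 to 14.2 in control against 10.7 to 14.2 with TPPU. Ephx2, the gene of the enzyme that TPPU inhibits, measured 0.447 to 0.865 and 0.420 to 2.56, which does not report on inhibition.

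TPPU was compared with control in limma on log2(FPKM + 1) over 9728 genes that reached 1 FPKM in 3 or more libraries. The change is on that scale and understates the change of low genes. Of the members, 35 entered, all 30 antiviral genes and 5 of the 10 GTPases. At an adjusted p under 0.05, 0 of 35 members were lower and 0 higher, against 0% of all genes in each direction. At an unadjusted p under 0.05, 5 members were lower, Cmpk2, Rsad2, Oasl1, Mx2 and Isg15, and 0 were higher. The background was 3.7% of genes lower (360) and 4.19% higher (408). With a GC trend removed from each library, an alternative added after the data were seen, 10 members were lower and 1 higher, against 7% and 5.66% of genes. With libraries weighted by quality, 9 were lower and 2 higher, against 8.19% and 11.4%. In 8 of the 35 tested members every TPPU value was under every control value, against 7.88% of all genes, and in 1 every TPPU value was above, against 7.48%. These 9 were antiviral. Iigp1, under the filter, was also higher in every TPPU library. A bulk library cannot tell fewer responding cells from less RNA per cell.

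**Figure D1:**
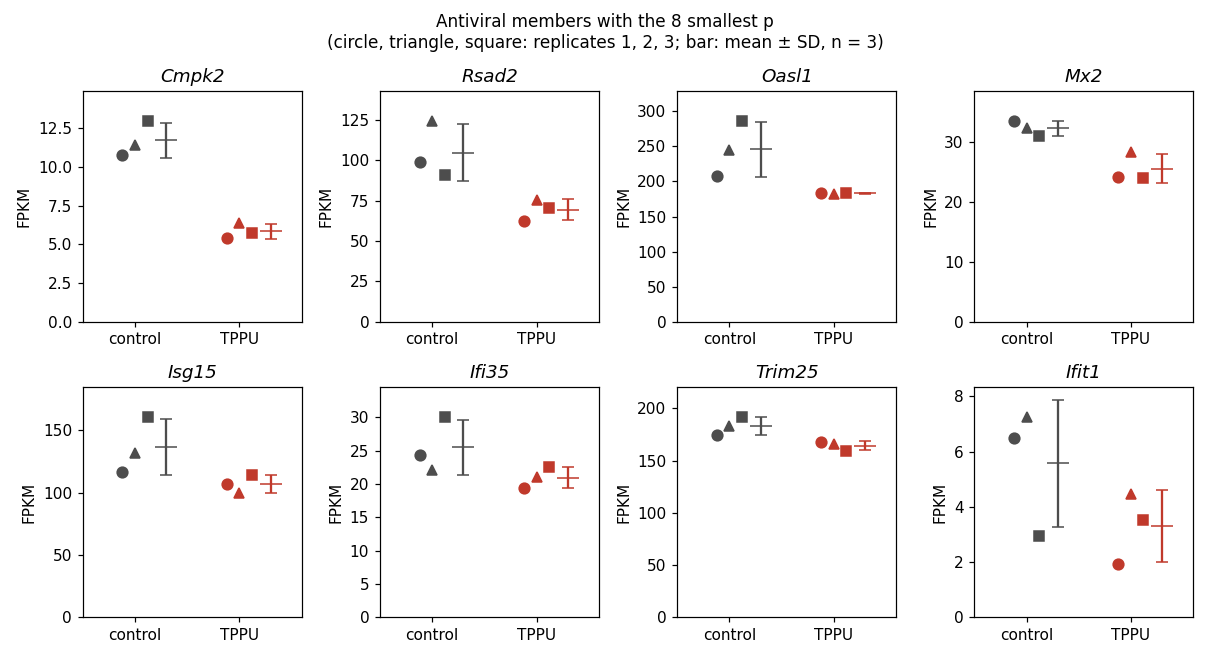
FPKM (linear axes from 0) of the 8 antiviral members with the smallest p in control (grey) and TPPU (red) libraries, with circles, triangles and squares for replicates 1, 2 and 3 and a bar for mean ± SD (n = 3). In Cmpk2, Rsad2, Oasl1, Mx2, Isg15 and Trim25 every red point lies below every grey point, while in Ifi35 and Ifit1 the groups overlap.

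Cmpk2 and Rsad2, neighbours on chromosome 12, had the smallest p of the members. Rsad2 encodes viperin, a radical SAM enzyme that makes a chain-terminating nucleotide from CTP. Cmpk2 encodes a mitochondrial nucleotide kinase that supplies CTP for it. Cmpk2 (26469204 to 26479837, plus strand, mm10) measured 10.8, 11.4 and 13.0 FPKM in control replicates 1, 2 and 3, and 5.39, 6.38 and 5.70 with TPPU. The highest TPPU value was well under the lowest control value. Its log2 change was -0.90 (SE 0.11, limma adjusted p = 0.116), and it ranked 2 of 9728 genes by p. Rsad2 (26442746 to 26456452, minus strand) measured 99.2, 124 and 90.6 in control against 62.4, 75.7 and 70.4 with TPPU, a change of -0.58 (SE 0.13, limma adjusted p = 0.397). The 2 genes are transcribed away from each other, 12.8 kb apart. With libraries weighted by quality both passed the threshold (limma adjusted p = 0.00721 and 0.0344), against 0.822% of genes called lower. That fit rested its control group mostly on replicate 1 (weight 3.84, against 0.826 and 0.191 for replicates 2 and 3). Without control replicate 3 and TPPU replicate 1, an alternative added after the data were seen, Cmpk2 passed (limma adjusted p = 0.0327), against 0.103% of genes called lower. An ISRE core was found in the window of Rsad2 and none in that of Cmpk2.

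The 2′-5′ oligoadenylate synthetase family holds Oas1a, Oas2 and Oas3, which make the activator of the RNA-degrading enzyme RNase L, and the related Oasl1 and Oasl2. In 4 of the 5 the change was negative, and the median was -0.18. Oasl1, a translational inhibitor of Irf7, measured 207, 245 and 286 FPKM in control replicates 1, 2 and 3, and 183, 183 and 184 with TPPU. The 3 TPPU values were nearly equal, while the control values were spread out above them. Its change was -0.41 (SE 0.12, limma adjusted p = 0.478), or -0.30 without control replicate 3, the highest control. Oas1a, among the most abundant members, measured 251, 229 and 271 in control against 236, 241 and 212 with TPPU, and Oas2 measured 56.6, 59.1 and 64.3 and then 54.2, 56.7 and 47.4. Both overlapped between groups. Oas3, 3.25 kb from Oas2 on chromosome 5 and on the same strand, measured 68.8 ± 8.80 in control against 70.6 ± 3.51 with TPPU (SD, n = 3), a change of 0.04. Oasl2, 11 kb from Oasl1, measured 12.9 ± 2.82 and 11 ± 1.52. Oas1a has close paralogs, among them Oas1g, so its value depends on how the authors' counting treated shared reads.

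The ISG15 system attaches a ubiquitin-like protein to newly made proteins. Its members in the list are Isg15 itself, the E3 ligases Herc6 and Trim25, and Usp18, which removes ISG15 and also blocks the interferon receptor. Isg15 measured 117, 132 and 161 FPKM in control replicates 1, 2 and 3, and 107, 99.4 and 114 with TPPU. The groups were separated by a narrow margin, and control replicate 3 was the highest. Its change was -0.34 (SE 0.12, limma adjusted p = 0.564), or -0.22 without control replicate 3. Trim25 measured 175, 183 and 192 in control against 168, 166 and 159 with TPPU, a change of -0.16 (SE 0.08). Herc6 measured 1.11, 1.18 and 1.06 in control against 0.603, 1.04 and 1.03 with TPPU, where replicates 2 and 3 lay just under the lowest control. Usp18 had the opposite order. It measured 85.2, 87.3 and 79.8 in control against 90.3, 96.9 and 88.9 with TPPU, a change of 0.13 (SE 0.08, limma adjusted p = 0.717). It was the 1 antiviral member in which all TPPU values were higher.

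The Mx genes encode dynamin-like GTPases that trap viral particles and lie 72.4 kb apart on chromosome 16. Mx2 measured 33.5, 32.4 and 31.0 FPKM in control against 24.2, 28.4 and 24.1 with TPPU. The groups did not overlap, and the change was -0.33 (SE 0.10, limma adjusted p = 0.511). Mx1 measured 5.58, 4.52 and 3.23 in control against 4.09, 4.42 and 4.14 with TPPU, which lay within the control range. Its change was -0.04 (SE 0.17), or -0.21 without control replicate 3.

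IFIT proteins bind the 5′ ends of viral RNA. The 3 genes form a cluster on chromosome 19 and did not share a direction. Ifit1 measured 6.49, 7.26 and 2.96 FPKM in control replicates 1, 2 and 3, and 1.92, 4.47 and 3.51 with TPPU. Control replicate 3 lay among the TPPU values. The change was -0.59 (SE 0.31, limma adjusted p = 0.660), or -0.92 (SE 0.24, limma adjusted p = 0.271) without that library and -0.33 (SE 0.31, limma adjusted p = 0.784) without TPPU replicate 1. Ifit2 measured 67.1, 73.9 and 21.1 in control against 44.9, 58.5 and 68.2 with TPPU. Its change was 0.25 (SE 0.42) and turned to -0.32 (SE 0.16) without control replicate 3. Ifit3 measured 7.03, 8.81 and 4.32 in control against 7.33, 7.14 and 7.23 with TPPU, a change of 0.14 that turned to -0.11 without that library. In all 3 genes control replicate 3 was the lowest control. Ifit3 has a near-identical copy, Ifit3b, at 0.254 ± 0.260 and 0.515 ± 0.106, and reads could be divided between them.

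**Figure D2:**
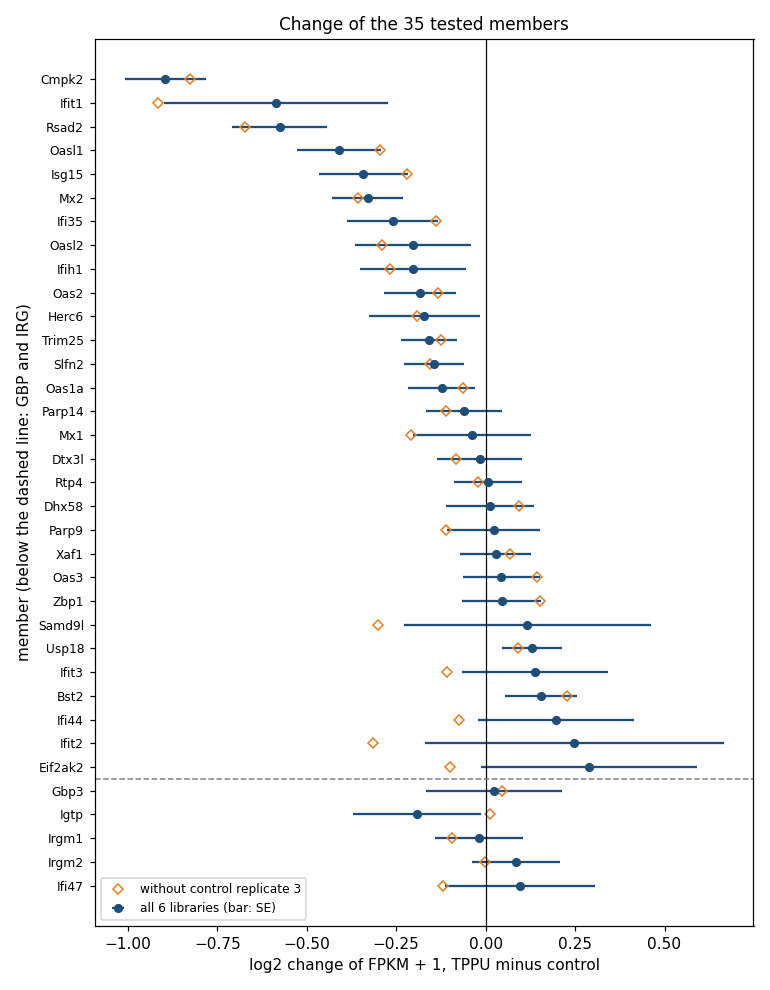
Log2 change of FPKM + 1 (TPPU minus control) of the 35 tested members from all 6 libraries (filled points, bars for SE) and without control replicate 3 (open diamonds), with GBP and IRG members under the dashed line. Cmpk2 at -0.90 and Rsad2 at -0.58 keep their side of 0, while Ifit2, Ifit3, Ifi44, Eif2ak2 and Samd9l cross it.

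The sensors of viral nucleic acid in the list are Ifih1, which encodes the RNA helicase MDA5, Dhx58, which encodes its relative LGP2, Zbp1, a sensor of Z-form nucleic acid, and Eif2ak2, the double-stranded RNA kinase PKR. Ifih1 measured 18.8 ± 2.5 FPKM in control against 16.3 ± 2.86 with TPPU (SD, n = 3). Dhx58 measured 34.0 ± 4.79 and 34.1 ± 2.5, and Zbp1 44.2 ± 6.17 and 45.3 ± 0.963. Their log2 changes were -0.20, 0.01 and 0.04. Eif2ak2 measured 24.3, 27.9 and 11.1 in control replicates 1, 2 and 3, and 19.9, 27.4 and 26.1 with TPPU. Control replicate 3 was the lowest of the 6, and the change of 0.29 (SE 0.30) turned to -0.10 without it.

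Slfn2, a Schlafen family member known for its part in T cell quiescence, measured 143, 148 and 141 FPKM in control against 123, 129 and 140 with TPPU. The groups did not overlap, although TPPU replicate 3 lay just under the lowest control, and the change was -0.14 (SE 0.08, limma adjusted p = 0.687). Samd9l, an antiviral and growth-restraining factor, measured 5.04, 6.17 and 1.76 in control against 3.07, 4.57 and 5.71 with TPPU. Ifi44 measured 46.2, 48.7 and 26.5 in control against 38.6, 49.3 and 47.8 with TPPU. In both, control replicate 3 was the lowest of the 6 libraries. Ifi35 measured 24.3, 22.0 and 30.1 in control against 19.4, 21 and 22.5 with TPPU, a change of -0.26 (SE 0.13, limma adjusted p = 0.638), or -0.14 without control replicate 3. Here 1 TPPU value lay above the lowest control. Bst2, which encodes the virus-tethering protein tetherin, was the most abundant member, at 404, 390 and 462 in control against 514, 427 and 459 with TPPU. Its change was 0.16 (SE 0.10, limma adjusted p = 0.714), and the groups overlapped.

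The ADP-ribosylation genes Parp9 and Parp14 and the ubiquitin ligase gene Dtx3l, whose product pairs with PARP9, lie together on chromosome 16. Parp9 measured 12.9 ± 2.14 FPKM in control against 13.0 ± 0.359 with TPPU, Dtx3l 11 ± 1.49 and 10.9 ± 0.715, and Parp14 8.99 ± 0.624 and 8.58 ± 0.664. Changes of the 3 genes lay between -0.06 and 0.02. Parp9 and Dtx3l overlap on opposite strands. Usp18, Oasl1, Oas2, Slfn2, Ifi35, Herc6, Eif2ak2 and Ifi47 do so with predicted genes, Rtp4 with Masp1 and Dhx58 with Dhx58os. Gbp2 does so with Mir6381 and Tgtp1 with Olfr56. Reads of such pairs cannot be told apart if strand was not used. Rtp4, a chaperone of receptors, measured 25.6 ± 0.918 and 25.7 ± 1.94, and Xaf1, a pro-apoptotic factor, 35.4 ± 2.58 and 36.2 ± 2.59. Of the 35 tested members 13 changed by less than 0.1 on the log2 scale, and 3, Cmpk2, Ifit1 and Rsad2, by more than 0.5.

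**Figure D3:**
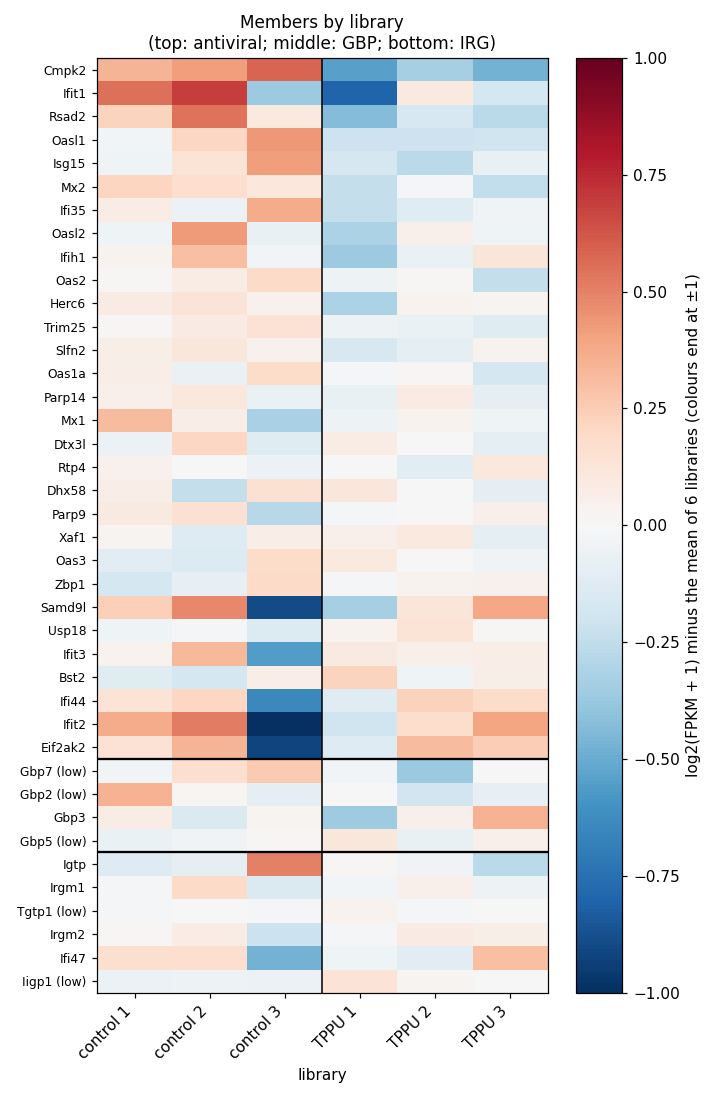
Deviation of log2(FPKM + 1) from the mean of the 6 libraries for all 40 members (rows, by class and then by change) in each library (columns), red above and blue below the mean, with "low" marking the 5 members under the filter. Cmpk2, Rsad2, Oasl1 and Isg15 are blue in all TPPU columns, and Samd9l, Ifi44, Ifit2 and Eif2ak2 are deep blue in control 3.

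The GBP genes are a cluster on chromosome 3 and were expressed near or under 1 FPKM. Gbp3 passed the filter. It measured 1.94, 1.52 and 1.84 FPKM in control against 1.18, 1.88 and 2.54 with TPPU, so that the TPPU values spanned the control values. Its change was 0.02 (SE 0.19). Gbp2 measured 1.06, 0.635 and 0.520 in control against 0.611, 0.418 and 0.524 with TPPU. Gbp7 measured 0.775, 1.04 and 1.18 in control against 0.782, 0.398 and 0.814 with TPPU. Gbp5, which also promotes inflammasome activation, measured 0.375, 0.408 and 0.458 in control against 0.563, 0.370 and 0.497 with TPPU. All 3 overlapped between groups, with two-sided exact permutation p = 0.3, 0.3 and 0.5, where 3 libraries against 3 cannot give less than 0.1. Counts estimated from FPKM and rounded were 25 to 47 fragments per control library for Gbp2, 44 to 62 for Gbp5 and 78 to 132 for Gbp7. Before rounding they lay up to 0.346, 0.460 and 0.428 from a whole fragment, so they are approximate. Summed over libraries and scaled to depth, TPPU over control was 0.707 for Gbp2 (95% exact interval 0.523 to 0.953), 0.649 for Gbp7 (0.546 to 0.771) and 1.13 for Gbp5 (0.912 to 1.40). These intervals cover counting error alone and leave out the spread between libraries.

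The IRG genes lie in 2 groups on chromosome 11, apart from Iigp1. Igtp, the most abundant, encodes Irgm3, and Irgm1 and Irgm2 are its fellow regulatory members that hold other IRG proteins inactive on host membranes. Igtp measured 8.25, 8.50 and 13.4 FPKM in control replicates 1, 2 and 3, and 9.21, 8.89 and 7.38 with TPPU. Control replicate 3 stood above the other 5 libraries, and the change of -0.19 (SE 0.18) was 0.01 without it. Irgm1 measured 4.86, 5.81 and 4.38 in control against 4.85, 5.16 and 4.73 with TPPU, and Irgm2 3.80, 4.02 and 3.11 and then 3.72, 4.04 and 3.96. The TPPU values of Irgm1 lay within the control range. Their changes were -0.02 (SE 0.12) and 0.08 (SE 0.12). Ifi47, also called Irgd, measured 2.10, 2.12 and 0.995 in control against 1.69, 1.56 and 2.42 with TPPU, a change of 0.09 (SE 0.21) that turned to -0.12 without control replicate 3. Igtp and Irgm2 overlap on the same strand in the annotation, so shared fragments could have been counted to either.

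Tgtp1 and Iigp1, effector IRG proteins that coat and break vacuoles, were close to 0. Tgtp1 came to 0, 1 and 0 fragments in control replicates 1, 2 and 3, and 2, 0 and 1 with TPPU, which is under the floor of 3 counts, and it has a near-identical copy, Tgtp2. Iigp1 came to 1, 2 and 1 fragments in control against 16, 9 and 6 with TPPU, or 0.0097, 0.0153 and 0.00900 FPKM and 0.151, 0.0678 and 0.0485 FPKM. Every TPPU library held more than any control. Summed and scaled to depth, TPPU over control was 7.40 (95% exact interval 2.61 to 28.8, counting error alone), with an exact permutation p = 0.1, the smallest possible here. The liver gene sums were 63.4, 83.5 and 102 in control replicates 1, 2 and 3, and 114, 227 and 194 with TPPU. They did not overlap between groups either. Among the TPPU libraries, replicate 1 had the lowest liver sum and the most Iigp1 fragments. The part of the liver genes in the Iigp1 values was not tested.

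Set side by side, the classes differed little in their change. The median log2 change was -0.05 over the 30 antiviral genes, with 17 negative, and 0.02 over the 5 GTPases tested, with 2 negative. Over all genes tested it was 0.02, with 45.6% negative. With no filter the 10 GTPases had a median of 0.02. Adding 1 FPKM pulls the changes of those under the filter toward 0, as for Iigp1, at 0.11 for a ratio of 7.40. This median therefore says little about them. The difference of the class medians, antiviral minus GTPase, was -0.07, and was between -0.16 and -0.02 as each library was left out, where -0.16 came without TPPU replicate 1. The antiviral median was -0.13 without control replicate 3. No test of this difference was made, since the members were chosen with results of these data known.

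By library, the mean deviation of the antiviral class from the mean of 6 libraries was 0.09, 0.16 and -0.08 in control replicates 1, 2 and 3, and -0.14, 0.00 and -0.03 with TPPU. Its median deviation was 0.06, 0.13 and 0.05 in control against -0.10, 0.01 and -0.04 with TPPU. The groups did not overlap in the median and overlapped in the mean, where control replicate 3 lay among the TPPU values. Over all genes tested the median deviation was -0.005, -0.02 and 0.04 in control against 0.01, 0.01 and -0.004 with TPPU. In control replicate 3 the antiviral median was thus close to that of all genes. The GTPase class had mean deviations of 0.02, 0.04 and -0.06 in control against -0.08, 0.01 and 0.08 with TPPU, which overlapped.

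**Figure D4:**
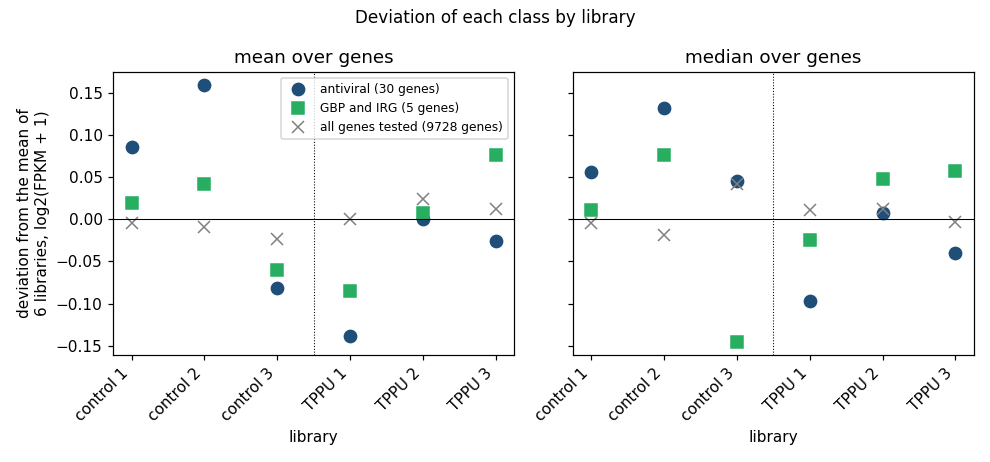
Mean (left) and median (right) deviation of log2(FPKM + 1) from the mean of 6 libraries in each library, for 30 antiviral members (circles), 5 GBP and IRG members (squares) and all 9728 genes tested (crosses). The antiviral median lies at 0.045 or above in the controls and at 0.01 or below with TPPU, and the squares show no such order. In control 3 the median over all genes, 0.042, lies close to the antiviral median.

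Base composition moved with control replicate 3 among the members too. Across the 35 tested members, the deviation of that library from the other 5 was related to GC content with a Spearman's rank correlation of 0.66, a description over genes that share the same libraries. In the 12 members lowest in GC (38.8% to 45.9%) the median deviation of control replicate 3 was -0.31, and in the 12 highest (49.9% to 56.3%) it was 0.22. It was the lowest of the 6 libraries for 12 of the 35 members and the highest for 11, against 27.7% and 34.8% of all genes tested. Without it, 27 of 35 members had a negative change, against 46.2% of all genes and 19 of 35 with it. All 12 members lowest in GC were then negative, with a median of -0.23 in place of -0.02. For TPPU replicate 1, which that setting keeps, the same correlation across the members was 0.46. Without both libraries 25 of 35 members were negative, against 45.5% of all genes. Of the 12 members lowest in GC, Ifi44 and Eif2ak2 were then positive, at 0.03 and 0.04. Without control replicate 3 alone, 11 members had all TPPU values below both controls, against 12.4% of all genes, and 4 above, against 17% of all genes. At an unadjusted p under 0.05, 6 were lower, the former 5 and Ifit1, against 4.15% of genes, and 1 was higher, Bst2, against 6.86%. With the GC trend removed, the antiviral median was -0.10 and the GTPase median -0.04. The part of base composition in each member's change was not tested.

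**Figure D5:**
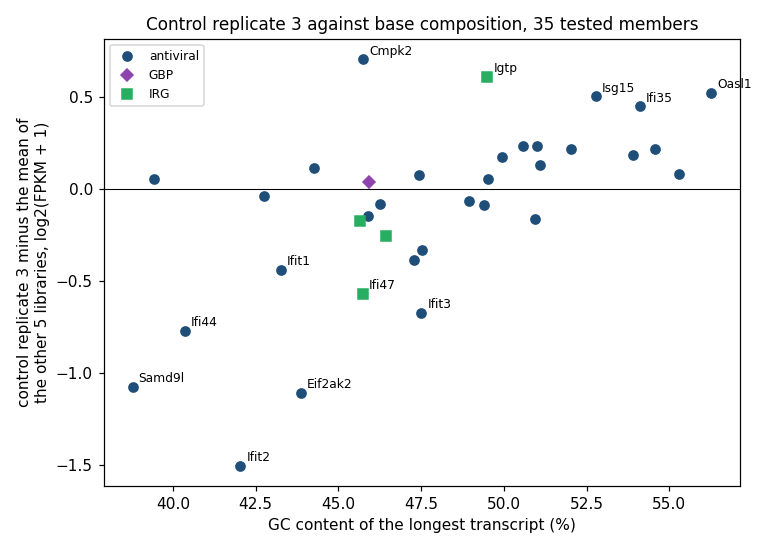
Control replicate 3 minus the mean of the other 5 libraries, in log2(FPKM + 1), against the GC content of the longest transcript (%) for the 35 tested members, by class. AT-rich members such as Samd9l, Ifi44, Ifit2 and Eif2ak2 lie below 0 and GC-rich ones such as Oasl1, Isg15 and Ifi35 above it, while Cmpk2 departs from that order.

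Upstream of the members, the pathway showed no change past the threshold. Ifnb1, the gene of interferon beta, was under the filter at 0.377, 0.474 and 0.977 FPKM in control against 0.220, 0.585 and 1.00 with TPPU. Of 14 genes for interferons and their receptors, 7 were in the table and 4 were tested, 3 negative and 1 positive, with a median of -0.02. Without control replicate 3 it was 1 negative and 3 positive, with a median of 0.07. Of the type I receptor genes, Ifnar1 went from 22.4 ± 1.81 in control to 21.7 ± 1.78 with TPPU in value and Ifnar2 from 8.59 ± 0.836 to 9.87 ± 0.698. Of the interferon gamma receptor genes, Ifngr1 had 7.84 ± 1.29 and 7.80 ± 1.03, and Ifngr2 38.0 ± 6.10 and 34.3 ± 3.14. Of 14 genes of TLR4-TRIF signalling and nucleic acid sensing 12 were tested, 8 negative and 4 positive, or 6 and 6 without control replicate 3. Ticam1, which encodes TRIF, measured 29.0 ± 5.70 and 23.5 ± 2.78, and Ticam2, its bridging adaptor, 2.99 ± 0.166 and 3.99 ± 0.359 (0.32 on the log2 scale, SE 0.12, limma adjusted p = 0.564). The kinase gene Tbk1 measured 33.3 ± 1.01 and 30.2 ± 1.23. Of the 12 tested, 1 was lower without overlap, Tbk1, and 1 higher, Ticam2, against 7.88% and 7.48% of all genes. Tlr4, under the filter, measured 0.743 ± 0.203 and 1.06 ± 0.138. All its TPPU values lay above control (exact permutation p = 0.1, the smallest possible here).

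Among 13 genes of JAK, STAT and IRF signalling, 5 changes were negative and 8 positive, with a median of 0.03. Without control replicate 3, 7 were negative and 6 positive, with a median of -0.00099. Stat2 had 32.6 ± 3.86 FPKM in control against 26.7 ± 2.11, a difference of -0.28 (SE 0.11, limma adjusted p = 0.610). Its groups did not overlap. Irf9 did not share that order and measured 14.9 ± 1.36 and 15.3 ± 1.27. Irf7, the factor that amplifies interferon production, measured 206 ± 6.85 and 215 ± 6.62, and Irf3 6.06 ± 0.762 and 7.26 ± 1.34. Irf1, the factor on which GBP genes depend, measured 5.18 ± 0.697 and 4.63 ± 0.288. Stat3 measured 17.9 ± 2.65 and 15.3 ± 1.14. The kinase gene Jak1 had 40.4 ± 4.78 and 41.1 ± 3.03, and Tyk2 19.0 ± 2.5 and 18.5 ± 1.74. Of 10 negative regulators tested, among them the NF-κB inhibitor gene Nfkbia, 9 changes were negative, with a median of -0.14. Socs3 changed by -0.76 (SE 0.25, limma adjusted p = 0.562), or -0.46 without control replicate 3, Nfkbia by -0.37 (SE 0.12) and Cish by -0.24 (SE 0.14). Socs1, under the filter, was at 0.126 ± 0.025 and 0.149 ± 0.070.

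Interferon-inducible genes outside the members were spread around 0. Of 63 further type I interferon-inducible genes 56 were tested, 23 negative and 33 positive, with a median of 0.03. Without control replicate 3 the tally turned to 33 negative and 23 positive, with a median of -0.03. This list shares genes with the signalling list, among them Stat2, Irf7 and Irf9. Its smallest p belonged to Slfn1, a relative of Slfn2, at 4.45 ± 0.678 FPKM in control against 2.44 ± 0.466, a difference of -0.66 (SE 0.15, limma adjusted p = 0.397). With libraries weighted by quality Slfn1 passed the threshold (limma adjusted p = 0.0448). Cxcl10, a chemokine gene induced by both interferon types, measured 10.5 ± 0.581 and 7.70 ± 1.03 (-0.40 on the log2 scale, SE 0.12, limma adjusted p = 0.492). Rnf213, a giant ubiquitin ligase, measured 35 ± 4.41 and 26.8 ± 1.43. The groups of these 3 genes, chosen for the smallest p, did not overlap. Over the list 7 genes of 56 were lower and 1 higher without overlap, against the 7.88% and 7.48% of all genes. Of 14 further GBP and IRG genes 10 were in the table and Gbp9 alone was tested, at 4.38 ± 0.875 and 4.64 ± 0.895. Of 22 targets of interferon gamma and IRF1, 14 were tested, 7 negative and 7 positive, with Psmb8, an immunoproteasome subunit, at 17.0 ± 2.32 and 18.6 ± 0.540 and B2m at 1469 ± 508 and 1712 ± 149.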

How the data were processed

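The authors deposited 1 table of FPKM for 18019 gene symbols in 6 libraries. Its name and its values give the unit. The build, per the submitters' processing notes, is mm10. The aligner, counter, annotation, filters and strand setting were not given in the sources used here; per the labels' protocols, libraries were made with dUTP. Library names in the descriptions matched columns to samples.

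Members and lists were chosen with earlier results of these data known. Fragments were estimated as FPKM times exon length (GENCODE M21, same build) times depth, and rounded. Depth was that at which low values of single-transcript genes were whole within 0.1 of a fragment (93.8% to 95.2% of values, 20% by chance). Values of the members need not be whole in this way. Values were log2(FPKM + 1), filtered at 1 FPKM in 3 libraries, and fitted with a mean-variance trend (limma 3.58.1, R 4.3.3), group as sole term, two-sided tests and Benjamini-Hochberg adjustment over 9728 genes. The fit was tested on simulated data. Members under the filter had an exact permutation test. All members were named, with values per library for the 8 antiviral genes of smallest p, the GTPases and members whose groups did not overlap; of each pathway list, fixed genes and the 3 of smallest p were named. A gene of the signalling list is not reported here. The gene symbols Rigi, Cgas and Sting1 stood for Ddx58, Mb21d1 and Tmem173. Alternatives were other pseudocounts, filters, scalings, weights and variance models, a replicate block, each library left out, and, added later, GC or length trends removed (loess, span 0.3; 97.9% of genes had values) and 2 libraries left out. Other steps ran in Python 3.11.15 (scipy 1.17.1, pandas 2.3.3, numpy 2.4.6, matplotlib 3.10.9).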

Additional observations from a re-analysis of the deposited data

How the results depend on the processing

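Among 9728 genes, 0 called higher and 0 lower became 89 and 80 with quality weights, 29 and 10 without control replicate 3 and TPPU replicate 1 together, 5 and 1 without TPPU replicate 1, 0 and 0 without any other single library, and 0 and 1 with the GC trend removed. Members past the threshold were 2 with the weights (Rsad2 and Cmpk2), 1 without those 2 libraries (Cmpk2) and 0 without each single library. The weights rested the control group mostly on replicate 1. The median over members was -0.077 with the weights, -0.087 with the GC trend removed and -0.11 to -0.031 with libraries left out. The antiviral median was -0.10, -0.10 and -0.13 to -0.036 in turn. With a mean of 5 FPKM required, Igtp was the GTPase kept, the GTPase median was -0.19 and the difference of medians 0.15. With libraries left out they were -0.042 to 0.11 and -0.16 to -0.015. With the replicate block 0 genes were called higher and 0 lower. Deviations from the group mean of libraries with the same number correlated at -0.30, 0.15 and -0.40. These cannot decide whether samples were paired, since control replicate 3 and TPPU replicate 1 stood apart under different numbers. The numbers were not taken to pair the samples. Direction turned with sample quality weights for Ifit2 (-0.16), Dhx58 (-0.024), Igtp (0.0033), Parp9 (-0.076), Rtp4 (-0.053), Ifi47 (-0.12), Samd9l (-0.12), Ifngr1 (0.0068), Jak1 (-0.032), Tyk2 (0.0059), Irf9 (-0.023), Gbp9 (-0.029). Direction turned with length trend removed for Dhx58 (-0.019), Gbp3 (-0.00042), Rtp4 (-0.046). Direction turned with quantile normalization for Gbp3 (-0.0095), Parp9 (-0.0052), Rtp4 (-0.016). Direction turned with GC trend removed for Gbp3 (-0.042), Parp9 (-0.024), Rtp4 (-0.014), Xaf1 (-0.019), Samd9l (-0.0095), Jak1 (-0.016), Tyk2 (0.0079), Gbp9 (-0.028). With libraries left out the direction turned, over these ranges, for Ifit2 (-0.32 to 0.56), Ifit3 (-0.12 to 0.33), Oas3 (-0.015 to 0.14), Mx1 (-0.21 to 0.11), Ifi44 (-0.075 to 0.35), Dhx58 (-0.10 to 0.092), Zbp1 (-0.034 to 0.17), Gbp3 (-0.14 to 0.23), Igtp (-0.30 to 0.013), Irgm1 (-0.095 to 0.075), Irgm2 (-0.0013 to 0.14), Parp9 (-0.11 to 0.10), Dtx3l (-0.12 to 0.082), Rtp4 (-0.047 to 0.058), Xaf1 (-0.031 to 0.086), Ifi47 (-0.12 to 0.20), Eif2ak2 (-0.1 to 0.53), Samd9l (-0.30 to 0.39), Ifnar1 (-0.10 to 0.019), Ifngr1 (-0.088 to 0.11), Jak1 (-0.072 to 0.083), Tyk2 (-0.12 to 0.059), Irf9 (-0.024 to 0.10), Gbp9 (-0.072 to 0.19), B2m (-0.045 to 0.46), Ifnb1 (-0.19 to 0.32), Socs1 (-0.021 to 0.064). The cause of these shifts was not tested.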
